A study of Mus musculus with 2 samples.

Results

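Pi16 adventitial-like dermal fibroblasts are cells of the dorsal skin that hold transcripts of collagen genes together with those of Pi16 and genes found with it. A cell was counted when Col1a1, Col1a2 and Col3a1 together made up at least 100 of each 10000 of its UMIs (unique molecular identifiers, 1 for each captured transcript) and at least 2 of Pi16, Sfrp4, Mfap5, Ebf2 and Myoc had a UMI. The cells were thus chosen by the measured values of these 8 genes, called rule genes and rule collagens below, whose levels only describe the choice. The rule found 433 cells, called members below, among 62289 kept cells, with 74 of 42244 in the control library and 359 of 20045 in the library of mice given testosterone propionate.

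The study asked how skin cells differ in a mouse model of androgenetic alopecia (AGA), the hair loss of androgen action, with or without an antibody that neutralizes CXCL12. Each group was a pool of dorsal skin from 15 male C3H/HeN mice, 9 weeks old at collection, and gave 1 droplet library of transcript ends. The methods give shaving of the back for the mice as a whole. The control mice (Con) received vehicle, and the AGA mice (TP) received 0.5 mg of testosterone propionate under the skin each day. Mice that also received the antibody are not analysed here. The model uses a strain and a dose of androgen to induce hair loss within weeks, and the sources used here give no replicate library, so that the group, the pool, the dissociation and the library cannot be told apart. No p-value can be had from 1 library per group, and every interval below is a 95% interval for counting error alone.

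Fibroblasts make and maintain the collagen and elastic fibres of the dermis. Those with Pi16 lie around vessels and in the fascia and deep dermis of many organs, often carry Dpp4, Cd34 and Ly6c1, and are regarded as a reserve from which other fibroblasts can arise. Pi16 encodes a secreted peptidase inhibitor, Sfrp4 a secreted WNT antagonist, Mfap5 a microfibril protein of elastic fibres, Ebf2 a transcription factor of mesenchymal and fat precursors, and Myoc the secreted protein myocilin. In the mm10 genome (RefSeq annotation of GRCm38.p6) Pi16 lies on chromosome 17 from 29318796 to 29328903, Sfrp4 on chromosome 13 from 19623175 to 19632825, and Mfap5 on chromosome 6 from 122513584 to 122529290. Ebf2 lies on chromosome 14 from 67233292 to 67430952, and Myoc on chromosome 1 from 162639150 to 162649694.

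The TP library was the deeper library. Kept cells had a median of 2162 UMIs in Con and 5166 in TP, and 303 of the deposited barcodes occurred in both libraries, 220 of them among kept cells. No control member and 4 TP members had a barcode that the other library also held, and no barcode was a member in both. Members held 288123 UMIs in Con and 3314053 in TP, so that TP gave 92.0% of their UMIs. A member had a median of 3496 UMIs and 1855 genes in Con, and of 8432 UMIs and 3044 genes in TP. Mitochondrial transcripts were a median of 1.57% and 1.42% of a member's UMIs.

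Members were more frequent in the TP library than in the control library. They made up 0.175% of kept cells in Con (0.138 to 0.220), whereas the TP library had 1.79% (1.61 to 1.98). The TP share was 10.2 times the control share (7.94 to 13.3), and 15.5 times when kept cells with markers of another class were left out of members and denominator. Depth bears on a rule that needs single UMIs, so the rule was applied again to cells thinned to 1000 UMIs each (5362 control and 891 TP cells were shallower and were left out). The shares were then 0.114% and 0.804%, with 42 and 154 members, and the ratio was 7.06 (4.99 to 10.2). The larger share in TP was thus present at equal depth and smaller in size.

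The difference in share was common to the collagen-high cells, meaning all kept cells that reached the collagen limit. They numbered 190 in Con and 746 in TP, 0.450% and 3.72% of kept cells, a ratio of 8.27 (7.05 to 9.76). Within them members were 38.9% in Con (32.0 to 46.3) and 48.1% of the TP cells (44.5 to 51.8), with a TP over Con ratio of 1.24 (0.960 to 1.61). After thinning these shares were 22.3% and 21.4%, a ratio of 0.956 (0.676 to 1.38). Both intervals include 1, and they cover counting error in these 2 libraries only, since 1 library per group allows no test of the share. Papillary-like fibroblasts, the collagen-high cells outside the rule with 2 or more of Apcdd1, Axin2, Col23a1, Ntn1 and Wif1, had a ratio of 5.37 (3.88 to 7.52), and those with 2 or more of C7, Agt, Gdf10, Abca8a and Inmt one of 13.6 (8.38 to 23.4). These 2 ratios are without thinning, and a cell could belong to both sets. Their median depths were 3268 and 2722 UMIs in Con and 8463 and 7119 in TP. Dissociation, the density gradient and the number of other cells recovered all enter a share of kept cells, and their part was not tested.

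**Figure D1:**
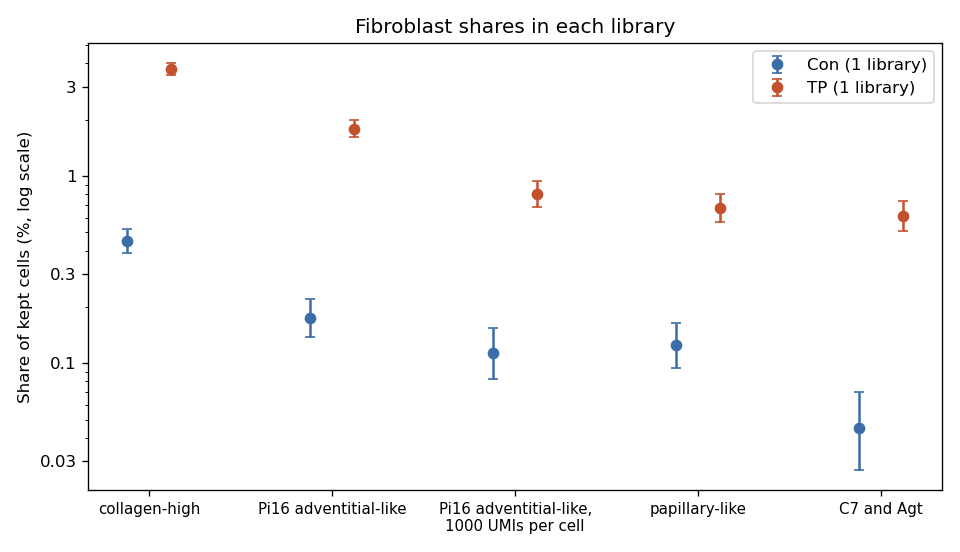
Share of kept cells in percent (log axis) for 4 sets of collagen-high cells in the control (blue) and TP (red) library, with the Pi16 adventitial-like cells shown as found and after thinning to 1000 UMIs per cell. Points are single libraries and bars are 95% exact binomial intervals, and the TP point lies above the control point in each pair.

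The values that chose the members were as follows. Pi16 had a UMI in 57 of 74 control and 271 of 359 TP members, Mfap5 in 51 and 315, Ebf2 in 45 and 264, Sfrp4 in 40 and 170, and Myoc in 25 and 81. Pi16 and Mfap5 were found together in 40 control and 238 TP members, and Sfrp4 and Myoc in 15 and 52. Pi16 stood at 1159 UMIs per 1000000 (CPM) in Con and 799 in TP, and Mfap5 at 524 and 525. The collagen sum of members ran from 111 to 2123 per 10000 UMIs in Con (median 400) and in TP from 100.2 to 2358 (median 427). Near the limit lay 3 control and 17 TP members with 100 to under 125 per 10000, and 1 control and 14 TP cells with 80 to under 100 that carried enough rule genes.

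The label was checked against Igfbp6, the marker that the rule did not use. Igfbp6, on chromosome 15 from 102144186 to 102149512, encodes a secreted protein that binds insulin-like growth factors. After thinning it had a UMI in 57.5% of control members (45.4 to 69.0) and 61.3% of TP members (56.1 to 66.4), against 9.09% and 20.3% of the other collagen-high cells. Inner root sheath-like cells, keratinocytes of the hair follicle that should lack the gene, showed it in 0.190% and 0.588%. Their median depths were 2159 and 6965 UMIs, and without thinning the shares were 79.7% and 91.9% of members and 0.312% and 2.61% of these keratinocytes. Igfbp6 was thus far above the level that free RNA gave, and the data bear the label on that marker. The members were chosen with earlier results of these data known, so that this is no independent check.

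Other surface and secreted markers of the same fibroblasts were also frequent in members after thinning. Cd34, a sialomucin of progenitor cells, had a UMI in 46.6% of control and 49.0% of TP members. It had none in the 2110 control and 340 TP keratinocytes, where a floor of 3 counts gives shares of 0.142% and 0.882%. Clec3b, which encodes the plasminogen-binding protein tetranectin, was found in 64.4% and 65.5% of members and 24.2% and 37.0% of the other collagen-high cells. Dpp4, the peptidase CD26, did not set the members apart by this measure. It was found in 13.7% and 23.2% of members but in 29.0% and 17.6% of inner root sheath-like cells. Without thinning, Cd34 was found in 78.4% and 91.6% of members, Clec3b in 87.8% and 93.6%, and Dpp4 in 45.9% and 66.6%.

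Levels were also set against the number of rule genes in a cell. Igfbp6 stood at 33.8 CPM in the 59 control collagen-high cells without a rule gene, at 283 in the 57 with 1, and at 1069, 1368 and 1834 with 2, 3 and 4. In TP the same steps gave 249, 402, 874, 1325 and 1816 CPM. Fn1, which encodes fibronectin, ran from 347 CPM without a rule gene to 2191 CPM with 4 in TP, and from 216 to 1931 CPM in Con. Col23a1, a collagen of papillary fibroblasts, went the other way, from 80.02 to 12.01 CPM in TP. Igfbp6, Ly6c1 and Clec3b in both libraries, Cd34 in Con, and Fn1 and Sema3c in TP stood higher at each step from 0 to 4 rule genes, across the limit of 2. This order did not hold for each gene. C7 in TP was highest with 2 rule genes (1429 CPM) and stood at 989 with 4, and Sema3c in Con stood at 176, 69.3, 317, 410 and 291 CPM from 0 to 4. Cells with more rule genes were also deeper, with medians of 5249 UMIs at 0 and 7983 at 4 in TP, and the part of depth in this order was not tested. The 4 control cells with all 5 rule genes are too few for a level. In the 32 TP cells with all 5 the order did not go on. Igfbp6 (1661 CPM), Fn1 (2147), Cd34 (825), Ly6c1 (1602), Clec3b (1161) and Sema3c (378) stood lower there than with 4. Of these, Ly6c1 and Sema3c had intervals that did not overlap.

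**Figure D2:**
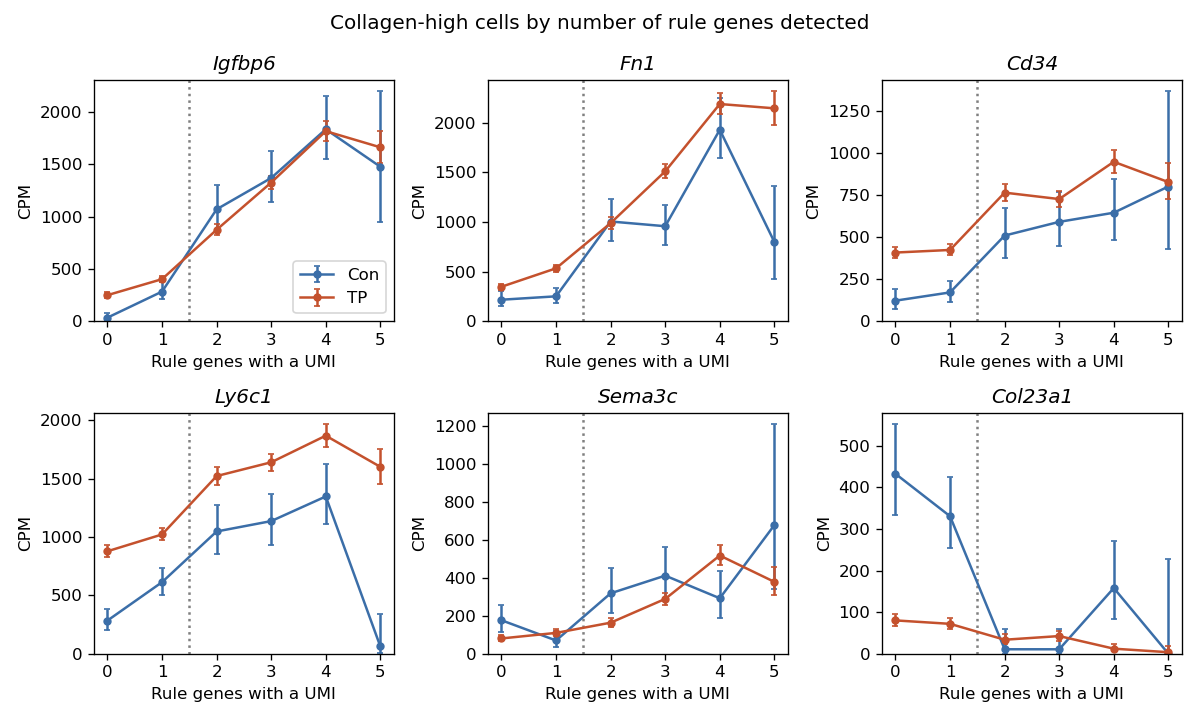
Level in CPM of 6 genes in collagen-high cells, by the number of the 5 rule genes with a UMI (x axis), in Con (blue) and TP (red). Each point sums the UMIs of 1 step, bars are 95% exact Poisson intervals, and the dotted line marks the limit of the rule. Igfbp6 rises from 33.8 to 1834 CPM in Con between 0 and 4 rule genes, while Col23a1 falls in TP.

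Markers of other cells were low in members with exceptions. The markers of endothelium, pericytes, myeloid cells, T cells, skeletal muscle and fat cells each summed to under 1 per 10000 UMIs in both libraries. In control members Pecam1, Ptprc, C1qa, Cd3e and Acta1 were at 0, and Adipoq, Plin1 and Cidec were at 0 in both libraries. Melanocyte markers summed to 1.28 in Con and 0.275 in TP. The 5 Schwann cell markers summed to 1.77 and 2.11 in members, above the 0.417 and 0.833 of the other collagen-high cells and the 0.149 and 0.159 of all kept cells. Most of this was Scn7a, a sodium channel (174 and 207 CPM), while the Schwann cell factor Sox10 was at 0 in both libraries. The 8 dermal papilla markers summed to 1.94 in Con and 2.12 in TP, and 1 TP member reached 100 per 10000, at 137.8. The 8 epidermal keratinocyte markers summed to 12.01 per 10000 in Con and 31.0 in TP, and 15 TP members but no control member reached 100 per 10000. The 6 markers of the inner root sheath and hair shaft summed to 15.6 in Con and 4.13 in TP, and 1 member in each library reached 100. Both lists moved in the same direction in all kept cells, from 78.4 to 219 and from 49.4 to 17.3 per 10000.

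Members were then compared, within each library, with the 116 control and 387 TP collagen-high cells that held fewer than 2 rule genes. The question is which genes outside the rule go with it in both libraries. All 3 listed complement genes (a list without C7), 6 of 15 adventitial genes and 3 of 6 genes of C7 and Agt fibroblasts that could be compared were higher in members in both libraries. By contrast, 4 of 5 contractile and myofibroblast genes and 3 of 5 papillary genes were lower. Of 1057 genes with at least 100 UMIs over both sums in each library, 37 were at least 2-fold higher in members in both libraries (3.5%) and 20 at least 2-fold lower (1.89%). Fold here is the difference of log2(UMIs per 10000 + 0.1), which understates the difference of low genes, and the ratios given are of CPM without a pseudocount. The other cells are no uniform set. Their dermal papilla markers summed to 33.7 per 10000 in Con and 1.82 in TP, against 1.94 and 2.12 in members, and the part of this in the ratios was not tested.

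Igfbp6 was among the genes with the largest ratios. It stood at 1409 CPM in control members and 173 in the other control cells, a ratio of 8.15 (6.18 to 10.9), and at 1319 and 328 CPM in TP, a ratio of 4.02 (3.75 to 4.31). Mgp, an inhibitor of calcification in matrix, stood at 576 against 74.5 CPM in Con and 230 against 45.6 in TP, ratios of 7.73 and 5.05. C3, the central complement protein, had ratios of 7.02 and 4.22, with 712 CPM in control and 1153 CPM in TP members. The C7 and Agt cells outside the rule, 19 in Con and 123 in TP, lay closer to members in these 3 genes than the other cells as a whole did. They held C3 at 443 and 719 CPM, Igfbp6 at 409 and 487 CPM and Mgp at 119 and 80.4 CPM. All 3 genes on the complement list that could be compared passed the fold in both libraries, the others being Serping1 (2.27 and 2.15), the inhibitor of the first complement proteases, and C1ra (2.51 and 3.24), a protease of that first step. That list leaves out C7, a complement gene that did not pass the fold in both libraries.

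Matrix genes formed the next group. Fn1 stood at 1242.5 CPM in control and 1551 CPM in TP members, 5.28 (4.13 to 6.82) and 3.49 (3.29 to 3.71) times the other cells. Col14a1, a collagen on the surface of fibrils, had ratios of 3.16 and 3.06, Col6a6, a chain of collagen VI, 4.04 and 5.01, and Col4a4, a basement membrane chain, 3.68 and 3.03. Of the 12 listed collagens outside the rule that could be compared, Col14a1 was higher in both libraries and Col11a1 lower, and Col6a6 and Col4a4 are not on that list. Ecm1, a glycoprotein of the matrix, had ratios of 3.80 and 2.69. The C7 and Agt cells outside the rule held Col6a6 at 273 CPM in Con and 114 in TP, against 361 and 261 in members. Col4a4 stood at 222 and 86.1 CPM there, against 274 and 158. Fn1 stood further below members, at 136 and 521 CPM. The rule collagens themselves took no common direction, since Col1a1 was 1.17 times the other cells in Con and 0.496 times in TP.

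Among the adventitial genes outside the rule, 6 of the 15 that could be compared were higher in both libraries and none was lower. These were Igfbp6, Fn1, Dpt (3.70 and 2.04), the small matrix protein dermatopontin, Dpp4 (2.89 and 3.24), Sema3c (3.10 and 3.22), a secreted guidance protein, and Ace (3.04 and 2.12), the angiotensin-converting enzyme. The median log2 difference of the 15 was 1.55 in Con and 0.95 in TP, beside -0.03 and 0.06 over all 1057 genes. Cd34 was 3.96 times the other cells in Con and 1.92 times in TP. Genes that mark C7 and Agt fibroblasts had medians of 1.49 and 1.19, with Mgp, Cygb and Abca8a (2.37 and 2.91) higher in both libraries.

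The remaining named genes have diverse roles. Gsn, which encodes the actin-severing protein gelsolin, was the most abundant of them, with 6244 CPM in control and 6349 CPM in TP members and ratios of 3.82 and 2.51. It was nearly as high in the C7 and Agt cells outside the rule (4997 and 4875 CPM) and lower in papillary-like cells (423 and 1838 CPM). Fmo2, a flavin monooxygenase, had ratios of 6.23 and 4.67, Cygb, the oxygen-binding cytoglobin, 3.42 and 3.35, and F3, the tissue factor that starts clotting, 3.71 and 4.75. Ifi27l2a, an interferon-induced gene, had ratios of 3.57 and 3.15, and Cdon, a co-receptor of hedgehog signalling, 4.46 and 3.11. The C7 and Agt cells held Cygb at 256 CPM in Con and 249 in TP, against 337 and 343 in members. Cdon stood at 102 and 128 CPM there, against 399 and 276. Sfrp2, a relative of the rule gene Sfrp4, differed most between the libraries. It stood at 375 CPM in members and 113 in the other cells of Con, a ratio of 3.31 (2.27 to 4.92), and at 296 and 13.4 CPM in TP, a ratio of 22.2 (16.1 to 31.4).

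Genes lower in members were led by those of contractile cells. Acta2, smooth muscle actin, had 1 UMI in control members against 209 in the other cells, a ratio of 0.00557 (0.000140 to 0.0314), and stood at 6.94 against 232 CPM in TP, a ratio of 0.02997. Tagln, the actin-binding protein transgelin, had no UMI in control members and 352 CPM in the other cells, at least 33.8-fold lower against the floor of 3 counts, and 2 UMIs against 319 in TP. Col11a1, a collagen of developing matrix, had ratios of 0.0406 and 0.0622. Lrrc15, a membrane protein of activated fibroblasts, had ratios of 0.0733 and 0.101, and 63.0% of its TP member UMIs came from 1 cell. Wif1, a WNT inhibitor of papillary fibroblasts, had ratios of 0.127 and 0.292, with 57.1% of its TP member UMIs in 1 cell. Nav2, Robo2, Tmem132c, Ncam1 and Etl4 completed the named genes, with ratios from 0.0690 to 0.236 in Con and from 0.176 to 0.275 in TP. Robo2 and Ncam1 encode a guidance receptor and an adhesion molecule best known from neurons. The lows were not particular to members in TP. The TP C7 and Agt cells outside the rule held Acta2 at 5.74, Col11a1 at 4.79, Lrrc15 at 1.91 and Wif1 at 24.9 CPM, below TP members. Nav2, Robo2 and Etl4 stood above TP members there, at 33.5, 99.5 and 49.8 CPM. In Con those 19 cells held 58640 UMIs in all, and Wif1 stood at 1040 CPM there, against 86.8 in members. Acta2 (34.1 CPM), Col11a1 (85.3) and Lrrc15 (51.2) rest on a few UMIs there. Control members held 1, 6 and 9 UMIs of these 3 genes, so that no order can be read from them.

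**Figure D3:**
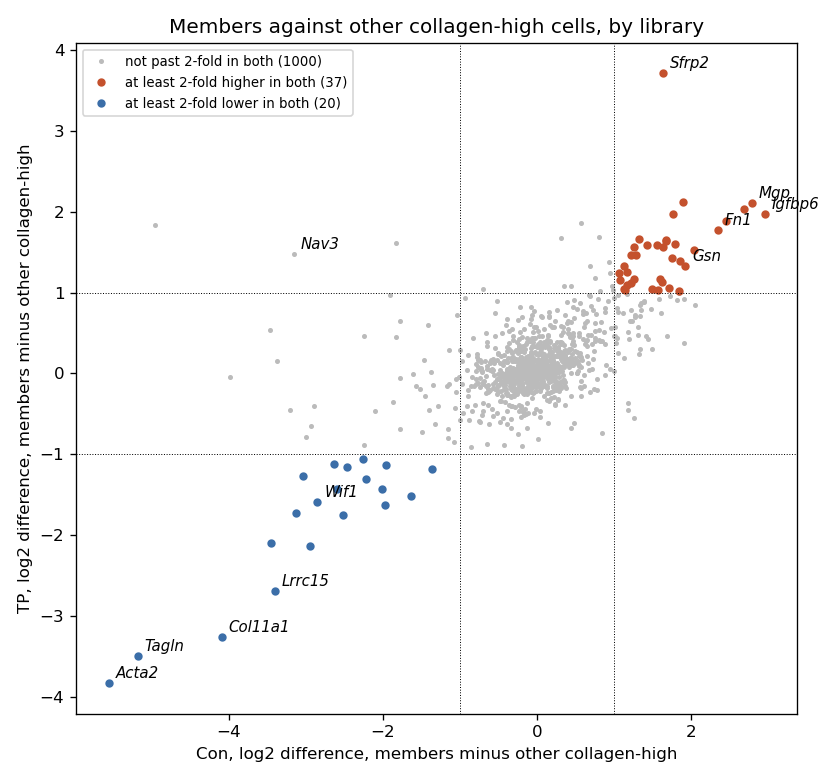
Log2 difference of UMIs per 10000 (pseudocount 0.1) between members and other collagen-high cells, in Con (x axis) and TP (y axis), for the 1057 genes with at least 100 UMIs in each library. Dotted lines mark 2-fold. The 37 genes higher in both (red) include Igfbp6, Mgp and Fn1, and the 20 lower in both (blue) end at Tagln and Acta2.

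Members differed among themselves. The 271 TP members with Pi16 and the 88 without it were set side by side as a description, since Pi16 is a rule gene. Those with Pi16 held more Dpp4 (356 against 102 CPM), Col14a1 (813 against 390), Igfbp6 (1418 against 1006) and Ackr3 (321 against 179), the latter an atypical receptor of CXCL12. Those without it held more C7 (1516 against 1104 CPM), the complement protein that marks another dermal fibroblast group, Agt (154 against 54.1), the angiotensin precursor, and Cxcl12 (383 against 199). The 57 control members with Pi16 and the 17 without it differed in the same direction for Dpp4 (293 against 152 CPM) and Col14a1 (1265 against 381), as well as for C7 (488 against 742) and Cxcl12 (204 against 266). Igfbp6 (1358 against 1636) and Ackr3 (272 against 362) stood the other way round in Con. Of these 6 control differences, only that of Col14a1 had intervals that did not overlap. The 264 TP members with Ebf2 held C3 at 1368 CPM and the 95 without it at 509 CPM, and control members at 939 and 333 CPM. Mgp stood at 148 CPM with and 474 CPM without Ebf2 in TP, and the other way round in Con, at 656 and 443.5 CPM with overlapping intervals. Ly6c1, a surface protein, stood at 1685 CPM with and 1544 CPM without Pi16 in TP.

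The comparison of TP with Con within members asks which genes differ in these cells once their number is set aside. Immediate-early genes stood higher in TP members. So did genes of hyaluronan, and those compared reached 100 UMIs over both sums only through the TP library. Most adventitial genes outside the rule stood higher by less than 2-fold. Hair keratins stood lower, and Krt25, Krt71 and Krt35 did so in the other collagen-high cells too. No listed collagen passed 2-fold, which is near the share over all genes. Of 5654 genes with at least 100 UMIs over both sums, 222 were past 2-fold (3.93%). Of these 159 were higher in TP (2.81%) and 63 lower (1.11%), with a median log2 difference of -0.04. The counting interval of the ratio lay above 1 for 8.3% and below 1 for 9.9%. Higher genes were 71.6% of those past the fold, and 88.5% with TMM scaling, which raised the median of all genes by 0.17 on the log2 scale. With a limit of 20 UMIs the share was 61.1%, and without a limit 55.05%. As TP gave most of the UMIs, a gene that was high in control members alone had less chance to reach the limit of 100 UMIs, and counts of genes past the fold in a list lean on that limit. The rule missed most falls in simulated data of this depth, so that the numbers of higher and lower genes cannot be read as a balance.

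**Figure D4:**
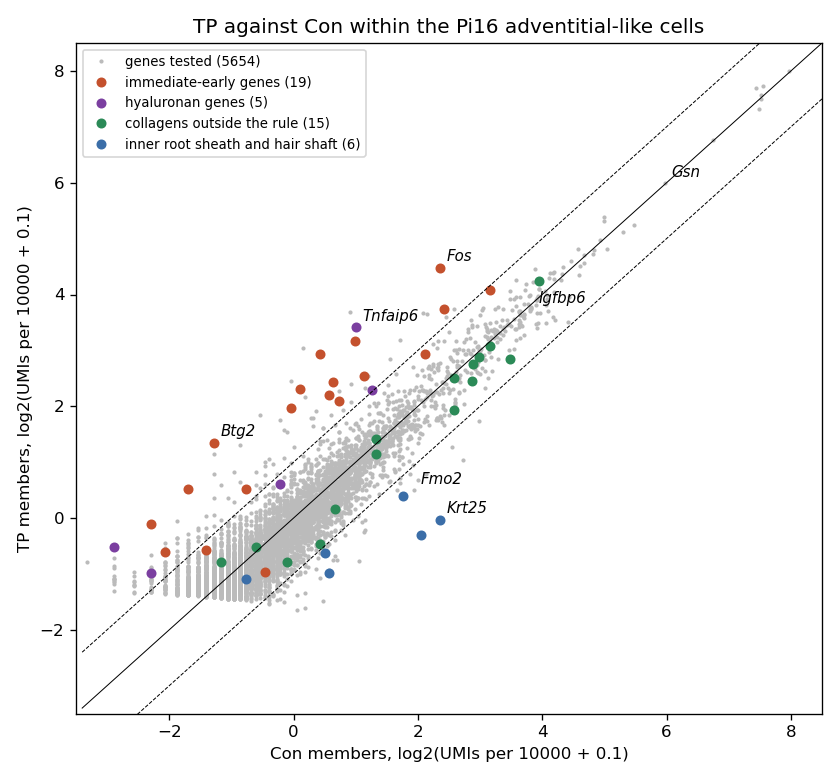
Level of 5654 genes in members of Con (x axis) and TP (y axis), as log2(UMIs per 10000 + 0.1), 1 point per gene and 1 library per axis. The solid line marks equal levels and the dashed lines 2-fold. Immediate-early genes (orange) lie mostly above the upper line, collagens outside the rule (green) lie between the lines, and 5 of 6 hair genes (blue) lie below.

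Immediate-early genes, which are induced within minutes of a stimulus, were the list with most genes past the fold. Of 23 listed, 19 reached the limit of UMIs, and of these 15 were higher in TP and none was lower, with a median log2 difference of 1.63. Among the 15, Btg2, Ier5, Socs3 and Ier3 had under 10 control UMIs and reached the limit only through the TP library. Junb (28 control UMIs), Atf3 (36) and Egr1 (54) also reached it only through that library, while Fos had 144. The count of 15 is thus a description of these genes. Fos, the AP-1 subunit, stood at 500 CPM in control and 2226 CPM in TP members, a ratio of 4.45 (3.78 to 5.29). Egr1, a zinc finger factor, stood at 187 and 892 CPM (4.76, 3.64 to 6.35), and Junb, another AP-1 subunit, at 97.2 and 483 (4.97, 3.43 to 7.51). Atf3, a stress-induced factor, stood at 125 and 755 CPM (6.04, 4.35 to 8.64), and Btg2, an inhibitor of proliferation, at 31.2 and 244 (7.81, 4.09 to 17.1). Jun (1.89) and Klf4 (1.78) did not reach the fold, nor did Nr4a1 (2.05, 1.02 to 4.83), and Fosl2 stood at 0.662 (0.403 to 1.15). Ifrd1, a transcriptional co-regulator, had the lower interval bound farthest from 1 among the named genes, at 101 and 814 CPM (8.09, 5.62 to 12.1). Nfkbia, the inhibitor of NF-kB, stood at 59.0 and 347 CPM (5.88, 3.66 to 10.1), and Gem, a small GTPase, at 31.2 and 212 (6.80, 3.56 to 14.9). With members chosen after thinning Ifrd1 stood at 5.06 and Nfkbia at 3.48.

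These genes were also higher in other cells of the TP library. The ratio of Fos was 2.74 in the other collagen-high cells and 5.97 in inner root sheath-like cells, and that of Atf3 14.1 and 7.85. Over all kept cells the log2 difference was 1.58 for Fos and 1.94 for Atf3. After thinning, Fos had a UMI in 28.8% of control and 70.3% of TP members, and in 15.5% and 62.1% of inner root sheath-like cells. Without thinning these shares of Fos were 52.7% and 90.8%, and 30.7% and 89.3%. The libraries were dissociated apart, and the part of dissociation in these genes was not tested. Heat shock genes followed in part, with 3 of 12 higher, namely Hspa5 (2.27), the chaperone of the endoplasmic reticulum, Hspb1 (2.32) and Dnajb1 (3.31). Hspb1 fell short of 2-fold, at 1.76, when members with markers of another cell class were left out. Hspa1a (0.992, 0.749 to 1.34) and Hspa1b (0.935, 0.685 to 1.30), the inducible HSP70 genes, were near level.

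Genes of hyaluronan, the large sugar polymer of the dermis, formed the second group. Of 10 listed, 5 reached the limit of UMIs, and 4 of these were at least 2-fold higher in TP. All 5 reached it only through the TP library, Tnfaip6 with 55 and Vcan with 66 control UMIs. The count is thus a description of these genes. Tnfaip6, which encodes TSG-6, the protein that links hyaluronan chains, lies on chromosome 2 from 52038113 to 52056681 and stood at 191 CPM in control and 1055.5 CPM in TP members, a ratio of 5.53 (4.24 to 7.36). The ratio was 2.83 with members chosen after thinning, and 34.5% of the control UMIs were in 1 cell. Has1, a hyaluronan synthase, had 1 UMI in control and 199 in TP members, a ratio of 17.3 (3.07 to 687), and Has2, another, had 3 and 135, a ratio of 3.91 (1.31 to 19.2), or 2.41 with members chosen after thinning. Vcan, the hyaluronan-binding proteoglycan versican, stood at 229 and 480 CPM (2.10, 1.64 to 2.73), but was short of 2-fold with the collagen limit at 50 (1.43) or 200 per 10000 (1.71) and with each cell weighted equally (1.96). Cd44, the hyaluronan receptor, stood at 76.4 and 142 CPM (1.86, 1.21 to 2.99).

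Ugdh and Gfpt2 encode enzymes that supply hyaluronan synthesis, and the other enzymes of that supply were not tallied. Ugdh makes the glucuronate units of the polymer and stood at 177 CPM in control and 1276 CPM in TP members, a ratio of 7.21 (5.47 to 9.70). Gfpt2, which controls entry into hexosamine synthesis, stood at 156 and 472 CPM (3.02, 2.25 to 4.16). Unlike Fos, neither Ugdh nor Tnfaip6 was higher in inner root sheath-like cells, where their ratios were 1.09 and 0.2499, the latter from 17 control and 2 TP UMIs. Over all kept cells, where the share of collagen-high cells also differed, the log2 difference was 1.04 for Ugdh and 1.68 for Tnfaip6. In the other collagen-high cells the ratios were 10.2 and 9.33, so that these differences were not particular to members. A UMI of Tnfaip6 was found in 13 of 74 control and 207 of 359 TP members, and in 8.22% and 34.7% after thinning.

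**Figure D5:**
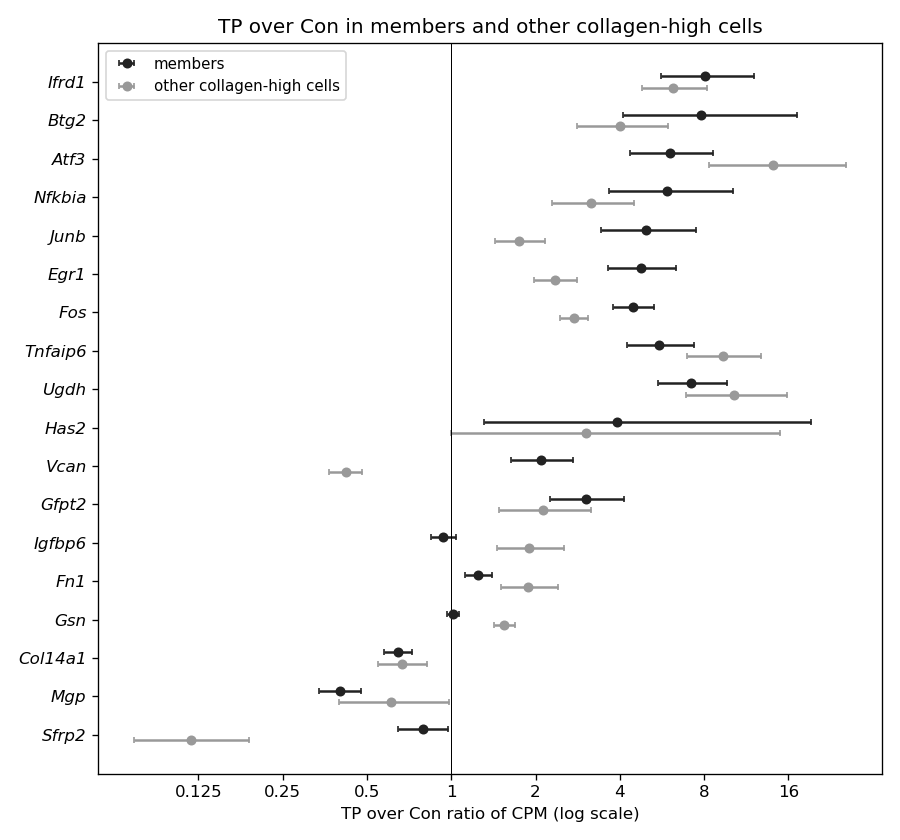
TP over Con ratio of CPM (log axis) for 18 genes in members (black) and in the other collagen-high cells (grey), with 95% exact conditional intervals for counting error. Ifrd1 to Gfpt2 lie above 1 in members, Igfbp6 and Gsn lie near 1, and Vcan lies on opposite sides of 1 in the 2 sets of cells.

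The promoters of the genes past the fold were searched for 2 motifs bound by the families that many immediate-early genes encode or answer to. The motifs were TGANTCA, the AP-1 site, and TGACGTCA, the cAMP response element, on both strands in the 250 bases before each RefSeq start site, and a match of one is never a match of the other. Of 5654 genes tested 4510 had a window. TGANTCA occurred in 19 of the 118 higher genes with a window (16.1%), in 5 of 48 lower genes (10.4%), in 5.70% of the genes tested and in 7.82% of all genes with a window. TGACGTCA occurred in 6 higher (5.08%) and 3 lower genes (6.25%), and in 3.08% of the genes tested. These are counts of letters and do not show that a site is bound. The 3 windows below are shown because each belongs to a gene of the groups above and holds a match, in capitals, with the strand of the gene from 5′ to 3′ (RefSeq, GRCm38.p6). The match ends 136 bases before the start in Tnfaip6 (chr2:52037863-52038112, plus strand), 217 bases before it in Gfpt2 (chr11:49793905-49794154, plus strand) and 159 bases before it in Btg2 (chr1:134079156-134079405, minus strand).
Tnfaip6: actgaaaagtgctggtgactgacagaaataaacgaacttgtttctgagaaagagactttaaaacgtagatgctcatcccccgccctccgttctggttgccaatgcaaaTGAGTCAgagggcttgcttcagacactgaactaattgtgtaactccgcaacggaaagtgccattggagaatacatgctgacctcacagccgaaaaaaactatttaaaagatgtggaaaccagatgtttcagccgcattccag
Gfpt2: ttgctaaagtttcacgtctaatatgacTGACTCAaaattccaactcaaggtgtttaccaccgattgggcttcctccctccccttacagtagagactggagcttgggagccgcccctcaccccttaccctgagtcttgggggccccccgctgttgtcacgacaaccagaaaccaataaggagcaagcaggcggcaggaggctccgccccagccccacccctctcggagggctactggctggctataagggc
Btg2: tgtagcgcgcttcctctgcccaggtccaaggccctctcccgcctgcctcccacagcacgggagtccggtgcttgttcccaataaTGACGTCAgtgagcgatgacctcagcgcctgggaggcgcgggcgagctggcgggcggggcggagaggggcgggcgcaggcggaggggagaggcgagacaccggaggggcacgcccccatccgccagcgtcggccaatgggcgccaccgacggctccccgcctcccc

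The adventitial genes outside the rule mostly stood moderately higher in TP. Of 24 measured, 19 had a counting interval above 1 and 1 below it, 6 were at least 2-fold higher and none was lower, with a median log2 difference of 0.49. The 6 were Gfpt2, Has1, Procr (2.83, 1.19 to 8.85), the endothelial protein C receptor, Creb5 (2.29, 1.74 to 3.08), a transcription factor, Limch1 (5.13, from 3 control UMIs) and Cmah (4.59, from 4 control UMIs). Of these, Has1, Procr, Limch1 and Cmah had 5 or fewer control UMIs and reached the limit only through the TP library. Gfpt2 had more control UMIs but also reached it only through that library. Igfbp6 was near level, with a ratio of 0.936 (0.845 to 1.04), and so was Sema3c (0.850, 0.694 to 1.05). Cd34 stood at 590 and 796 CPM (1.35, 1.15 to 1.58) and Ly6c1 at 1107 and 1651 (1.49, 1.33 to 1.67). Clec3b was the 1 gene with an interval below 1, at 1659 and 1111 CPM (0.670, 0.609 to 0.738). In the other collagen-high cells Igfbp6 had a TP over Con ratio of 1.90 (1.46 to 2.52), against 0.936 in members. Fn1 had one of 1.89 (1.50 to 2.40) there, against 1.25 (1.12 to 1.39) in members. Higher levels in TP were thus not particular to members for these 2 genes, and the rest of the list is given for members alone. The rule genes Pi16 (0.689), Sfrp4 (0.734) and Myoc (0.554) stood lower in TP members and Mfap5 and Ebf2 level, though with members chosen after thinning the median log2 difference of these 5 genes was 0.27 in place of -0.44.

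None of 15 collagens outside the rule reached 2-fold in either direction in members. Over all genes tested 3.93% did, so that this count is near the common share and says little of collagens. The median log2 difference of the 15 was -0.13, which TMM scaling turned to 0.06. The interval lay below 1 for 6 of the 15 and above 1 for 1. Col14a1 stood at 1104 and 711 CPM (0.644, 0.573 to 0.726), Col16a1 at 149 and 102 (0.685, 0.498 to 0.965), and Col6a2 at 725 and 664 (0.915, 0.794 to 1.06). The 1 above was Col5a2, a chain of the fibrils (1.23, 1.12 to 1.36). Col1a1, Col1a2 and Col3a1, which the rule used, had ratios of 0.994, 1.02 and 1.05 in members and from 2.35 to 2.54 in the other collagen-high cells. As these genes set the limit for both sets, the ratios only describe the choice. The median collagen sum of the other cells with 0 and 1 rule gene was 150 and 180 per 10000 in Con and 614 and 592 in TP. Of 19 elastic fibre genes 1 was past the fold, and none of 9 small leucine-rich proteoglycans or 16 matrix proteases and inhibitors passed it. These counts too are near the 3.93% of all genes tested. Mmp2, the gelatinase, stood at 1.22 (1.05 to 1.42).

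The study followed CXCL12 and TGF-beta signalling. Cxcl12 stood at 215 CPM in control and 243.5 CPM in TP members, a ratio of 1.13 (0.873 to 1.49), and its receptor gene Ackr3 at 288 and 287 CPM (0.995, 0.795 to 1.26). Of 17 genes of TGF-beta and BMP signalling, 6 had an interval above 1 and 4 below it, and 2 were at least 2-fold higher, the ligand gene Tgfb2 (55.5 and 168 CPM, 3.02, 1.84 to 5.32) and Ccn1 (2.31), a matrix-associated target. Tgfb2 stood at 1.27 when members were chosen after thinning. The receptor gene Tgfbr2 stood at 410 and 615 CPM (1.50, 1.25 to 1.82) and Tgfbr1 at 125 and 75.1 (0.601, 0.423 to 0.878). Bmp4 stood at 65.9 and 32.6 CPM (0.494, 0.302 to 0.853).

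Among other secreted factors, Cxcl1 (3.03, 1.37 to 8.35), a neutrophil chemokine, and Ccl8 (2.68, 1.72 to 4.42), a monocyte chemokine, were the 2 of 13 chemokine and cytokine genes past the fold, with 20.6% and 17.8% of their TP UMIs in 1 cell each. All 6 control UMIs of Cxcl1 were in 1 cell, and so were 50% of the 20 of Ccl8. Both genes reached the limit of UMIs only through the TP library. Cxcl1 ranged from 1.33 with members chosen after thinning, through 1.89 with 3 rule genes, to 6.81 with each cell weighted equally. Of 8 genes on the complement list, C4b was past the fold (2.81, 1.41 to 6.59), and C3 stood at 1.62 (1.41 to 1.87). C7, a complement gene that this list leaves out, was also past the fold, at 534.5 and 1204 CPM (2.25, 1.92 to 2.66). With members chosen after thinning C4b stood at 1.50 and C7 at 1.69. Agt stood at 24.3 and 78.2 CPM (3.22, 1.54 to 8.08), but at a ratio of 0.946 when members were chosen after thinning. Agt and C4b too reached the limit of UMIs only through the TP library. Of 12 genes of the WNT pathway, only the ligand gene Wnt5a was past the fold, at 72.9 and 26.3 CPM (0.360, 0.222 to 0.611). Among 11 genes linked to steroid action, Zbtb16 (2.93, 2.08 to 4.29) and Cebpd (2.66, 1.88 to 3.88), transcription factors that glucocorticoids induce, were higher, while Fkbp5 stood at 1.31 (0.919 to 1.94) and Tsc22d3 at 2.10 (1.28 to 3.71). The latter passed 2-fold in CPM but not on the scale with the pseudocount. With TMM scaling the genes higher in TP numbered 17 of the immediate-early genes, 4 of the steroid-linked, 3 of the chemokine and cytokine and 2 each of the WNT and elastic fibre genes, while the collagens had none.

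The named falls were in part genes of hair and in part genes of members. Krt25 and Krt71, keratins of the inner root sheath, stood at 503 and 406 CPM in control and 88.1 and 70.9 CPM in TP members, ratios of 0.175 each. Tchh, which encodes trichohyalin, and Krt35, a hair shaft keratin, had ratios of 0.367 and 0.293, and 42.6% of the TP UMIs of Tchh were in 1 cell. In inner root sheath-like cells, Krt25 stood at 8655 CPM in Con and 10687 CPM in TP, and such cells were 2564 of the kept control cells and 345 of the kept TP cells. Slc30a1, a zinc exporter, Myo10, a myosin of filopodia, and Fabp5, a fatty acid-binding protein, had ratios of 0.220, 0.304 and 0.299, and each stood higher in inner root sheath-like cells than in control members. Their ratios in the other collagen-high cells were 0.214, 0.383 and 0.499.

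Other falls lay in genes that members held above the level in those keratinocytes. Fmo2 stood at 371 and 131 CPM (0.353, 0.285 to 0.441) and Mgp at 576 and 230 CPM (0.399, 0.337 to 0.475). Both were higher in members than in the other collagen-high cells as a whole in each library. The C7 and Agt cells outside the rule held Fmo2 at 222 CPM in Con and 50.7 CPM in TP. Mgp stood at 0.578 with each cell weighted equally. Abca8a, a lipid transporter, stood at 777.5 and 323 CPM (0.415, 0.359 to 0.482), and at a ratio of 0.514 with members chosen after thinning. Gria4, a glutamate receptor subunit, and Zfp503, a transcriptional repressor, had ratios of 0.235 and 0.284, and 40.7% of the 27 control UMIs of Gria4 were in 1 cell. Dach1, a transcriptional co-regulator, stood at 128 and 26.0 CPM (0.202, 0.136 to 0.306), but at 191 CPM in control inner root sheath-like cells, and at a ratio of 0.558 with 3 rule genes. In the other collagen-high cells the ratio was 0.204 for Dach1, 0.471 for Fmo2, 0.564 for Zfp503 and 0.611 for Mgp. For Gria4 it was 0.629 there (0.372 to 1.13).

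Epidermal markers stood higher in TP members, with 4 of 7 past the fold. Krt14, the keratin of basal epidermis, stood at 86.8 CPM in control and 540 CPM in TP members (6.22, 4.20 to 9.65), against 447 and 388 CPM in the other collagen-high cells. Krt10, of the spinous layer, stood at 430 and 1245 CPM. Defb6, a beta-defensin, had no UMI in control members and 159 in TP members, at least 4.61-fold higher against the floor of 3 counts, with 33.3% of them in 1 cell. When members with markers of another class at 100 per 10000 or more were left out, 342 TP and 73 control members remained, and 142 genes were higher and 65 lower. This choice uses the epidermal markers themselves. Krt14 then stood at 2.77, while Krt1 (2.63 before and 1.80 after), Krt10 (2.89 and 1.79) and Krt5 (3.35 and 1.35) were short of 2-fold.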

How the data were processed

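Dorsal skin was dissociated and made into 10x Chromium 3′ libraries, 1 per group. The authors aligned reads to mm10 and counted with Cell Ranger 8.0.1 (per the submitters' processing notes), and the deposited values are whole UMI counts per gene and barcode, not normalized. The files held 45709 control and 25931 TP barcodes with 130999979 and 166929585 UMIs. Barcodes were kept with 200 to 8000 genes and no more than 10% of UMIs from mitochondrial genes, limits the study also gives. The study removed doublets after these files. No doublet caller was run here, and a screen by markers of other cells was an alternative.

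UMIs were summed over members per library and divided by the total. Genes with at least 100 UMIs over the 2 sums were compared, and called past the fold at a difference of 1 in log2(UMIs per 10000 + 0.1). The 95% intervals follow Poisson (sums), Clopper-Pearson (shares) and conditional binomial (ratios) distributions, all exact, and carry no error but that of counting. Thinning drew 1000 UMIs per cell without replacement, with a fixed seed. Inner root sheath-like cells had Krt25, Krt27, Krt28 and Krt71 at 100 or more per 10000. The fold rule was tested on simulated data with the UMIs of members and changes of 1 size. It found the simulated rises in TP but missed most of the falls. Genes that fall in TP can stay under the limit of UMIs, and the pseudocount shrinks differences of low genes. The parts of these in the missed falls were not told apart. Counts of lower genes are therefore too small beside those of higher genes. Python 3.11.15, numpy 2.4.6, scipy 1.17.1, pandas 2.3.3 and matplotlib 3.10.9 were used, with edgeR 4.0.16 in R 4.3.3 for TMM factors alone.

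The members and the gene lists were chosen with earlier results of these data known. Genes were named by rule, as the 12 rises and 12 falls (TP over Con) and the 15 higher and 10 lower genes (members over others, in both libraries) past the fold whose interval bound nearest 1 lay farthest from it, without gene models that lack a symbol, mitochondrial genes and the 8 genes of the rule, together with list genes and genes the study named. A gene that the rule named among the falls is not reported here. Nav3, Sdk1, Vcan and Fbn2 were singled out in the closing section by a comparison of directions. Symbols and positions were matched to RefSeq of GRCm38.p6. Ccl19 occurs more than once in the annotation, and the first entry was used.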

Additional observations from a re-analysis of the deposited data

Results flagged for a closer look

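Of 4815 genes compared in both sets of cells, 4 were at least 2-fold higher in TP members than in control members and at least 2-fold lower in the other collagen-high cells of TP than in those of Con, with all counting intervals away from 1. The difference between the sets was not tested, since each rests on the same 1 library per group.

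Nav3, a cytoskeleton-associated protein, stood at 41.6 CPM in control and 168 CPM in TP members (ratio 4.04) and at 447 and 53.8 CPM in the other cells (ratio 0.120). Sdk1, an adhesion molecule, had ratios of 2.30 and 0.422, and Vcan, versican, 2.10 and 0.420. Fbn2, a fibrillin of developing microfibrils, had ratios of 3.91 and 0.422, from 5 control member UMIs and with 36.9% of its TP member UMIs in 1 cell, and stood at 1.77 with members chosen after thinning. Vcan in members ranged from 1.43 to 2.65 over the alternatives.

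The other collagen-high cells of Con held dermal papilla markers at 33.7 per 10000 and those of TP at 1.82. Sostdc1 stood at 1598 and 18.8 CPM there, Corin at 692 and 37.0, and Crabp1 at 423 and 28.4. Their part in the 4 ratios was not tested.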

How the results depend on the processing

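The TP over Con ratio of the member share, 10.2, moved to 7.06 after thinning, to 1.24 as a share of collagen-high cells, and to 15.5 when every kept cell with markers of another class was taken out, keratinocytes of the denominator included. It stayed between 9.61 and 11.2 under the other alternatives run. The counts of genes moved with the limit on UMIs, since fewer or more genes were compared. For TP against Con, with 159 higher and 63 lower, they were 278 and 177 at 20 UMIs, 278 and 227 without a limit, 55 and 10 at 500 UMIs, 35 and 8 with a pseudocount of 1, and 239 and 31 with TMM. With each cell weighted equally 102 were lower. With members chosen after thinning, an alternative added after seeing the data, they were 103 and 29. For members against the other cells, with 37 and 20, they were 89 and 69, 115 and 99, and 4 and 1 at the same 3 limits, 17 and 5 with the pseudocount of 1, 60 and 80 or 19 and 1 with collagens at 50 or 200 per 10000, and 20 and 33 after thinning. With 3 rule genes 24 were higher. Requiring a counting interval away from 1, also added, gave 157 and 63, and 37 and 20. For members against the other cells, more genes were compared with collagens at 50 per 10000 and fewer at 200. The counts at these collagen limits thus have no common base and cannot be read as shares. With members chosen after thinning, fewer genes were compared for TP against Con, and more for members against the other cells. TMM and weighting left the number of genes compared unchanged. Beyond the number compared, the cause was not tested for TMM, weighting, thinning and collagen limits. Of 565 values for 63 named genes, 521 stayed within the counting interval, 43 left it in the same direction, and Agt turned to 0.946 after thinning. Of the 63 with a ratio past 2-fold, 16 were short of it under at least 1 alternative, 10 of them with members chosen after thinning and 4 without cells with markers of another class. No paired analysis was possible because each group is 1 library and the results come from no test, so no replicate could be left out either. With 74 control members, low genes have wide intervals.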

Other observations

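Fos had 7377 UMIs in TP members, and no cell gave more than 1.84% of them, so that the level was spread over many cells (326 of 359 with a UMI). Tnfaip6 was narrower, with 207 TP members holding a UMI and 3.89% of the UMIs in the highest cell. Cthrc1, a secreted matrix protein of fibroblasts in repair, had 5 UMIs in control and 287 in TP members (ratio 4.99, 2.11 to 15.5), and a ratio of 10.2 in the other collagen-high cells. With members chosen after thinning the ratio in members was 1.97.

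Wnt2, a ligand of dermal fibroblasts, stood at 17.4 and 40.4 CPM in members (2.33, 0.974 to 7.29) and was 19.7 times the other collagen-high cells in TP. Sfrp1, a secreted WNT antagonist, stood at 347 and 393 CPM in members, while its TP over Con ratio in the other collagen-high cells was 0.0971. Of the barcodes above the mitochondrial limit, 3465 in Con and 5844 in TP, the rule was met by 0 and 2.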
